A study of Mus musculus with 24 samples.

Results

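The miR-23/27/24 clusters are a pair of genomic loci that each encode a miR-23, a miR-27 and a miR-24. Their mature products miR-23a, miR-23b, miR-27a, miR-27b and miR-24 were taken by name, which gave 5 of the 655 miRNA probes on the array. The array is an Illumina bead array, on which a fluorescent signal in arbitrary units and a detection p-value were recorded for each probe. RNA came from the carotid intima, the inner lining of the artery, of male C57Bl6 mice aged 6 to 8 weeks. It was flushed out with Qiazol after partial ligation of the left carotid, in which 3 of its 4 caudal branches were tied and flow became low and oscillating. The right carotid of operated mice was the control, and the 24 arrays form 4 groups of 6: left and right at 12 h and left and right at 48 h after surgery. No sham-operated or unoperated arteries were in the groups, so flow, surgery and side of the body cannot be told apart. The labels do not say whether numbered samples came from separate animals or pools. The p-values therefore weigh a difference only against the scatter among these samples, and some of that scatter may be technical.

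MicroRNAs are short RNAs that guide Argonaute proteins to messenger RNAs, mostly by pairing of bases 2 to 8, the seed, and thereby lower the output of those messengers. The miRNAs of a cluster are cut from a shared primary transcript, although each mature level also depends on processing and decay. Members of the miR-23/27/24 clusters are abundant in vascular tissue. They have been studied in endothelial sprouting and proliferation, and miR-23b and miR-27b have been described as raised by laminar flow in cultured endothelial cells.

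In the mouse assembly GRCm38.p6 (RefSeq), Mir23a, Mir27a and Mir24-2 lie on the plus strand of chr8:84208518-84208921, a span of 404 bases that no other annotated gene encloses. Mir23b, Mir27b and Mir24-1 lie on the plus strand of chr13:63300484-63301275, a span of 792 bases inside the protein-coding gene Aopep. The mature sequences matched in RefSeq, 4 of the 5, are shown with the seed in capitals because they define which miRNAs share a target code.
miR-23a: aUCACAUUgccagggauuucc
miR-27a: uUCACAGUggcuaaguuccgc
miR-27b: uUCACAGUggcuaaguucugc
miR-24: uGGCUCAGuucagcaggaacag
miR-27a and miR-27b shared bases 2 to 8, as did miR-23a and miR-23b, while the miR-24 seed was different from both. Counted from 1 at the 5′ end, miR-27a and miR-27b differed by C19T alone, and miR-23a and miR-23b also differed at 1 base, position 19. In the deposited probe sequences that base is the last one, in capitals here, which is why the probes are shown.
miR-27a probe: ttcacagtggctaagttcC
miR-27b probe: ttcacagtggctaagttcT
Signals of the a and b copies therefore rest on telling apart a single end base, and cross-hybridisation between them was not tested. The mature miR-24, in capitals below, is the same in both hairpins, so its signal cannot be assigned to a locus.
Mir24-2 (chromosome 8): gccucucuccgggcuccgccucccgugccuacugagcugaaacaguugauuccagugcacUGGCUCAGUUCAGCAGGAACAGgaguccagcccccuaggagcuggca
Mir24-1 (chromosome 13): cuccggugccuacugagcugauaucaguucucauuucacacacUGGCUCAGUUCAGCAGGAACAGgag

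In each artery at 12 h, array 1 matched array 4, array 2 matched 5 and array 3 matched 6 with rank correlations of at least 0.986. Other pairs at that time reached at most 0.877, and the matching arrays were averaged as repeats of 1 sample. This left 3 samples per artery at 12 h and 6 at 48 h. Arrays detected (detection p under 0.05) between 335 and 431 probes. The lowest numbers, 335, 336 and 356, came from right arrays 4, 1 and 2 at 48 h. Both strands of miR-126, the defining endothelial miRNA, were detected on every array, but the raw signal of miR-126-3p was 19333 to 23267 at 12 h and 264 to 8236 at 48 h. The other strand, miR-126-5p, had medians of 23749 in left and 24143 in right arteries at 12 h, and of 10886 and 21496 at 48 h, when it ran from 1134 to 27261. The smooth muscle miRNAs miR-143 and miR-145 were also detected on every array, with a summed normalized level of 19896 to 30861 at 12 h and 27643 to 40555 at 48 h. Erythroid markers summed to 1598 to 7050 at 12 h and 22455 to 43287 at 48 h, with miR-144 undetected on every array. Both sums were normalized separately at each time. The liver miRNA miR-122 was undetected on every array at 12 h but detected on at least 1 array of each artery at 48 h. Because a flushed intima is a bulk sample, fewer cells of a type and less RNA per cell cannot be told apart.

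The 5 miRNAs were bright at 12 h in both arteries, and all were detected on 12 of 12 arrays. At 48 h, miR-23b, miR-27a and miR-24 were again bright on every array, miR-27b was uneven and miR-23a was undetected on 3 arrays. Raw signals of miR-24 were 18387 to 21564 at 12 h and 23596 to 31308 at 48 h and did not overlap. Those of miR-23b and miR-27a overlapped between the times. How many other miRNAs had raw signals apart between the times was not counted. The highest signal of any probe was 21958 to 25770 on 12 h arrays and 25158 to 31933 on 48 h arrays. The raw signal of miR-23a ran from 12283 through a median of 15804 to 17918 in left arteries at 12 h, and from 17234 through 17850 to 19884 in right arteries. At 48 h it ran from 75 through 1029 to 10009 in left arteries and from 66 through 7225 to 10336 in right arteries. It was detected on 4 left and 5 right arrays at 48 h, and the undetected arrays were left 4, left 5 and right 4.

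**Figure D1:**
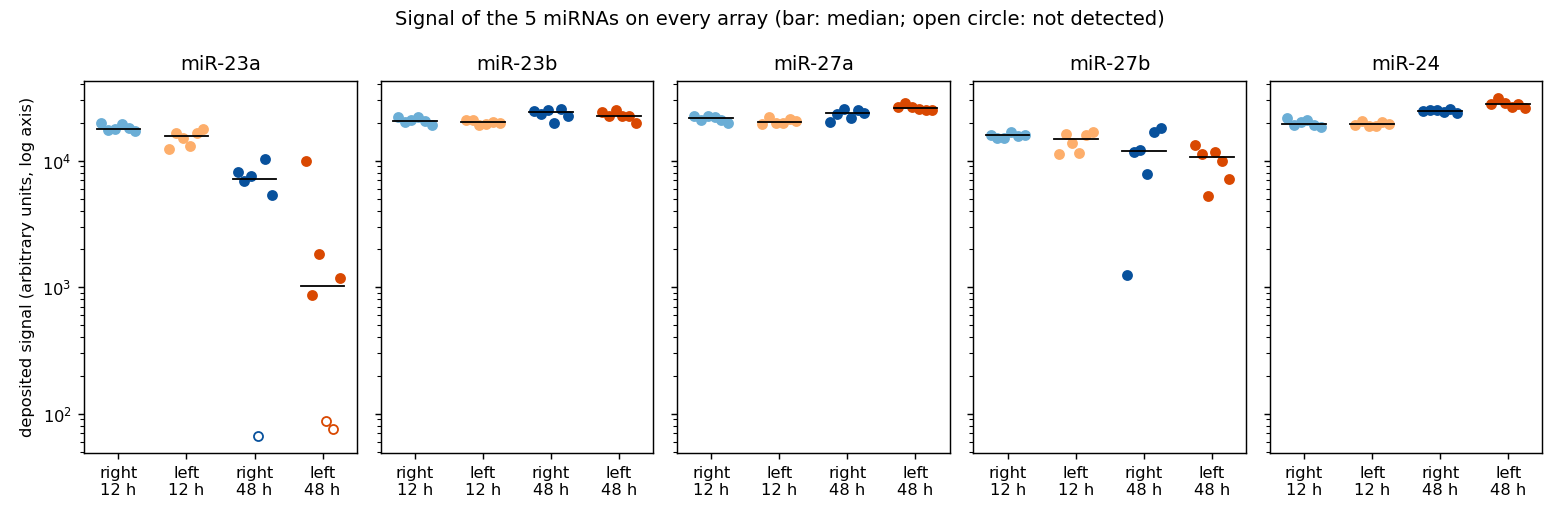
Deposited signal (arbitrary units, log axis) of miR-23a, miR-23b, miR-27a, miR-27b and miR-24 on each of the 24 arrays, by artery and time. Bars are medians and open circles are arrays that did not detect the probe; miR-23a ranges from 66 to 10336 at 48 h, whereas miR-24 ranges from 23596 to 31308.

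The raw signal of miR-27b at 48 h ran from 5258 through 10651 to 13244 in left arteries and from 1246 through 11953 to 18238 in right arteries. Left array 3 and right array 1 were the low ones, and the arteries overlapped. By contrast, the highest and lowest 48 h signals differed by 1.28-fold for miR-23b (19793 to 25396) and by 1.40-fold for miR-27a (20381 to 28552). For miR-24 they differed by 1.33-fold. Loss of a bright signal at 48 h was not limited to miR-23a. Of the 25 probes at or above 12283, the lowest 12 h signal of miR-23a, on every 12 h array, 6 were undetected on at least 1 array at 48 h. Only let-7e and miR-23a among these were undetected on 3 or more arrays. This count was chosen after the values were seen.

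At 12 h none of the 5 miRNAs passed the test between left and right carotid, where 2 of 430 miRNAs did (0.465%). The test was limma on quantile-normalized log2 signals, with Benjamini-Hochberg adjustment over all miRNAs tested and a threshold of 0.05. For miR-23a, log2 signals were 13.81, 13.93 and 14.03 in left arteries and 14.21, 14.16 and 14.13 in right arteries. All left samples lay below all right samples, and the left minus right change was -0.24 ± 0.06 (SE; limma adjusted p = 0.280). For miR-27a, log2 signals were 14.28, 14.36 and 14.35 in left arteries against 14.40, 14.38 and 14.39 in right arteries. The groups again did not overlap, with a change of -0.06 ± 0.03 (SE; limma adjusted p = 0.495). Such separation occurred in 82 of the 430 miRNAs (19.1%). The other three gave changes of -0.12 for miR-27b, -0.03 for miR-23b and -0.02 for miR-24. All 5 point estimates were below 0, as were 239 of the 430 miRNAs.

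At 48 h, miR-23b was lower in the left carotid and was the only one of the 5 to pass the test, where 12 of 407 miRNAs did (2.95%). Its raw signal ran from 20020 through 22495 to 25227 in left arteries and from 19793 through 24084 to 25396 in right arteries, so raw values overlapped. On the normalized log2 scale the left arteries had 14.36 ± 0.09 and the right arteries 14.58 ± 0.08 (SD, n = 6 each). Left samples ran from 14.20 to 14.47 and right samples from 14.43 to 14.66, so 1 right sample fell within the left range. The change was -0.22 ± 0.05 (SE; limma adjusted p = 0.0315). Of the 407 miRNAs tested, 19 had groups that did not overlap (4.67%), and none of the 5 was among them.

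The miR-23b call depended on the normalization and on the samples. With cyclic loess it was -0.13 (adjusted p = 0.181), and with scaling to the 75th percentile it was -0.38 (adjusted p = 0.626) over all probes or -0.08 (adjusted p = 0.708) over probes detected on every array. It was also lost in 9 of 12 fits that left out 1 sample, with changes between -0.25 and -0.19. Without the variance trend of the test the adjusted p was 0.374. Quantile normalization maps the brightest probes of every array onto the same few values. Of the 30 brightest miRNAs 4 were called at 48 h, namely miR-23b, miR-26a, miR-574-3p and miR-99b, which is 13.3% against 2.12% of the others. This count was chosen after the calls were seen, and it includes miR-23b itself. The spread within groups was also narrower among the brightest miRNAs, so the count cannot tell these features of bright probes apart. The cause of their higher share of calls was not tested.

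**Figure D2:**
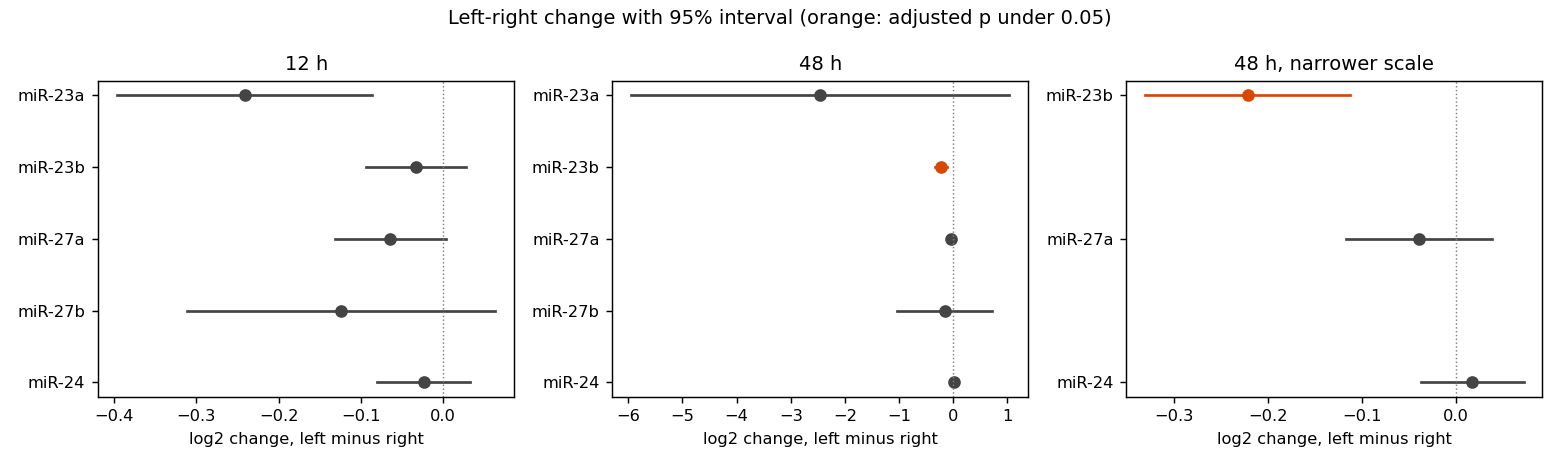
Left minus right log2 change with its 95% interval at 12 h (left panel, n = 3 per artery) and 48 h (middle panel, n = 6 per artery; right panel, the same 48 h values of miR-23b, miR-27a and miR-24 on a narrower axis). Only miR-23b at 48 h, at -0.22, passed the threshold on the adjusted p, and the interval of miR-23a spans -5.95 to 1.04.

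The largest point estimate at 48 h among the 5 was that of miR-23a, at -2.46 ± 1.60 (SE; limma adjusted p = 0.424). This estimate includes the 3 undetected samples at the background floor. Left and right samples overlapped, from 5.54 to 13.09 in left arteries and from 5.78 to 13.09 in right arteries. The change of miR-27b was -0.16 ± 0.40 (SE; limma adjusted p = 0.866), with an interval from -1.03 to 0.71. For miR-27a the change was -0.04 ± 0.04 with an interval from -0.12 to 0.04, and for miR-24 it was 0.02 ± 0.03 with an interval from -0.04 to 0.07. Raw signals of miR-24 did separate, at 25856 to 31308 in left arteries and 23596 to 25482 in right arteries, yet its rank among the 655 probes overlapped, at 3 to 7 and 4 to 7. That raw comparison was made after the values were seen, and how many other miRNAs separated on the raw scale was not counted. The highest signal of any probe ran from 27805 to 31933 on left and from 25158 to 28980 on right arrays at 48 h.

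The precision of these comparisons differed widely between the 5. At 48 h the residual SD within groups was 2.99 for miR-23a, the 26th most variable of 407 miRNAs, and 0.75 for miR-27b. It was 0.08 for miR-23b, 0.05 for miR-27a and 0.03 for miR-24, the smallest of all. At 12 h it ran from 0.02 for miR-24 to 0.10 for miR-27b. These SDs are of quantile-normalized log2 signals, a step that holds the brightest probes to the same few values. In right arteries at 48 h, miR-24 ran from 14.63 to 14.70 on that scale but from 13.80 to 15.96 with 75th percentile scaling. Its raw signals there differed by only 1.08-fold (23596 to 25482), so the wider range was not present in the raw signals.

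**Figure D3:**
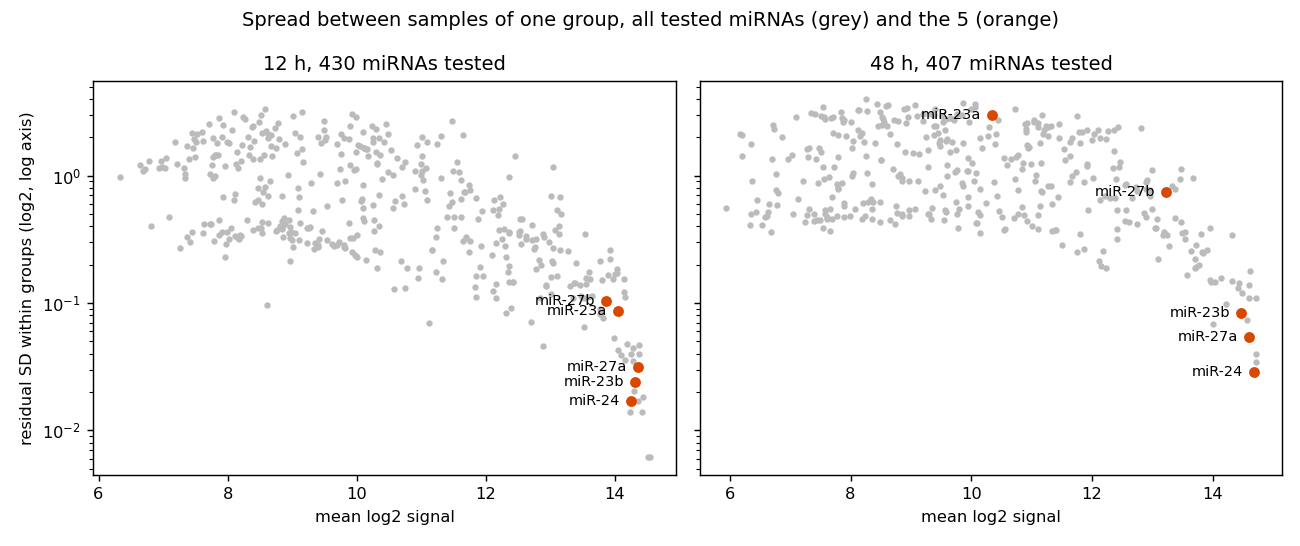
Residual SD within groups (log2, log axis) against mean log2 signal for every tested miRNA (grey) and the 5 miRNAs of the clusters (orange), at 12 h and 48 h. Signals are quantile-normalized within each time. Spread narrows among the brightest miRNAs at both times, and miR-23a moves from 0.09 at 12 h to 2.99 at 48 h.

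The left-right change did not pass the test of a difference between the times for any of the 5, where 0 of 363 miRNAs did (0%) by limma. The change of miR-23b was lower at 48 h than at 12 h by a fitted -0.19 (interval -0.35 to -0.02; limma adjusted p = 0.551). A call of miR-23b at 48 h and none at 12 h does not therefore show that its response differed between the times.

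Between times, miR-24 was higher at 48 h in both arteries, by 0.28 ± 0.03 in left (limma adjusted p = 4.51e-06) and 0.22 ± 0.03 in right arteries (limma adjusted p = 8.43e-05). miR-23a was lower at 48 h in left arteries, by a log2 change of -4.43 ± 1.52 (limma adjusted p = 0.0281), while right arteries gave -2.48 ± 1.52 (adjusted p = 0.255). Undetected arrays, 2 left and 1 right at 48 h, enter the miR-23a values at the background floor. Of the blood and endothelial markers, miR-486 was higher at 48 h by 2.59 in left and 3.32 in right arteries (limma adjusted p = 0.000207 and 3.44e-05). The log2 change between times was 1.41 and 3.10 for miR-451 (adjusted p = 0.278 and 0.0331), -3.59 and -5.29 for miR-126-3p (adjusted p = 0.00172 and 8.81e-05) and -1.30 and -0.74 for miR-126-5p (adjusted p = 0.0595 and 0.336). Their part in the changes of miR-24 and miR-23a was not tested. In left arteries the calls of miR-24 and miR-23a stand among 190 of 458 miRNAs (41.5%). In right arteries the call of miR-24 stands among 107 of 430 (24.9%). Each time point was deposited as a table of its own, so time and table cannot be told apart. Scaling to the 75th percentile ended the miR-24 calls in both arteries (adjusted p = 0.403 and 0.293). The same scaling moved the median of all miRNAs from 0.21 to -0.27 in left and from 0.13 to -0.19 in right arteries.

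The gap between the b and a copies within a sample was compared next, on the quantile-normalized log2 signals. A common scaling cannot move such a gap, but quantile normalization can. For miR-23b minus miR-23a the log2 gap was 0.36 ± 0.12 in left and 0.16 ± 0.01 in right arteries at 12 h (SD, n = 3 each; two-sided exact permutation p = 0.1, the smallest possible). At 48 h, in samples that detected miR-23a, it ran from 1.26 to 5.45 in 4 left and from 1.57 to 2.86 in 5 right arteries. The gaps of the 3 other samples, 8.83 and 8.87 in left and 8.65 in right arteries, are set by the background floor, so no mean or p is given for this gap at 48 h. For miR-27b minus miR-27a at 48 h it was -1.44 ± 0.46 and -1.32 ± 0.89 (exact permutation p = 0.753).

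**Figure D4:**
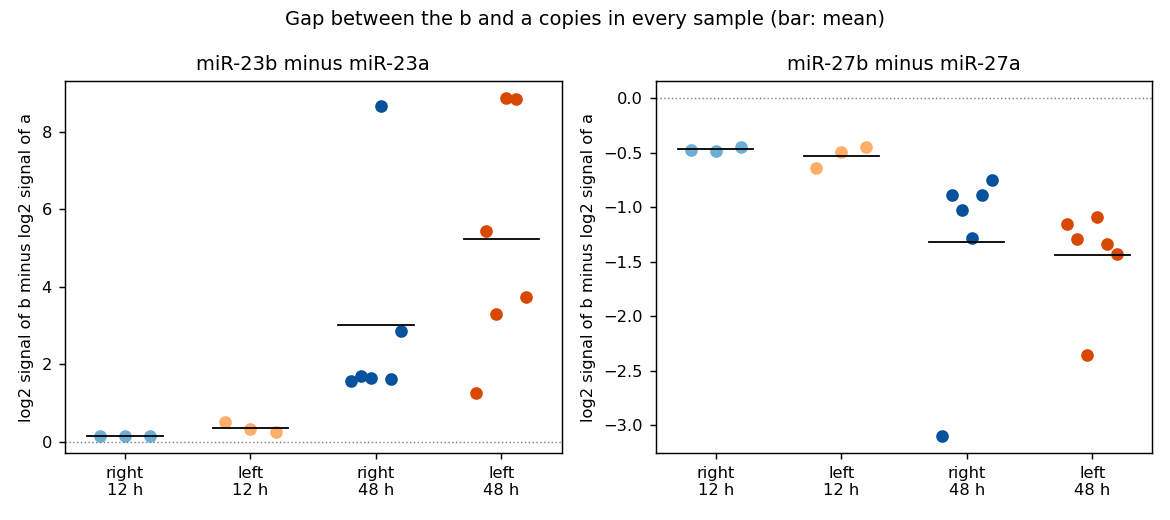
Log2 gap between miR-23b and miR-23a (left) and between miR-27b and miR-27a (right) in each sample, by artery and time, with bars at the mean. At 48 h the miR-23 gap runs from 1.26 to 8.87 in left and from 1.57 to 8.65 in right arteries. The gaps of 8.65, 8.83 and 8.87 come from samples in which miR-23a was undetected, and the mean bars include them.

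Set against the smooth muscle miRNA miR-145 on the same arrays, the left-right difference of miR-23b at 48 h was -0.01 (exact permutation p = 0.861), and miR-145 itself changed by -0.21 (limma adjusted p = 0.0992). The gap of miR-24 over miR-145 was larger in left arteries by 0.23, with 6 of 6 left samples above the right mean (exact permutation p = 0.0108, adjusted p = 0.242). None of the 28 gaps tested passed 0.05 after adjustment, and 3 had an exact permutation p under 0.05. Gaps with miR-23a at 48 h include its undetected samples. Against endothelial miR-126-3p at 48 h, the differences were between -4.31 and -1.84. The endothelial strands had opposite left minus right point estimates at 48 h, 1.86 for miR-126-3p (limma adjusted p = 0.272) and -0.63 for miR-126-5p (limma adjusted p = 0.533). Smooth muscle markers were lower in left arteries at 48 h for 2 of 2 point estimates. Leukocyte markers were higher for 3 of 3 tested, and none of either list passed the test. Of the 4 leukocyte markers listed, miR-142-5p was not tested. It was undetected on every left array at 48 h but not on every right one. Summed leukocyte levels, in which the brightest marker weighs most, ran from 19362 to 28580 in left and from 3454 to 18382 in right arteries. The sums of every other cell type list overlapped between the arteries at 48 h, and no sum was tested. The part of leukocytes in the miR-23b result was not tested.

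The minor strands of the hairpins, cut from the other arm and usually less stable, were on the array for 4 cases. miR-24-2*, from the chromosome 8 locus, was detected on every array. At 48 h its raw signal ran from 6454 through 7089 to 14537 in left and from 2518 through 5775 to 7115 in right arteries. The left-right change was 0.55 ± 0.25 (SE; limma adjusted p = 0.272). It was higher at 48 h than at 12 h in left arteries, by 1.76 ± 0.48 (limma adjusted p = 0.00767). Right arteries gave 0.95 ± 0.48 in the same direction (limma adjusted p = 0.166), and the arteries were not shown to differ. miR-27a* was detected on every array and miR-27b* on all but 1, with left-right changes of -0.31 and 0.07 at 48 h. miR-24-1*, from the chromosome 13 locus, was detected on 5 of 24 arrays and was not tested.

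The likeness of other miRNAs was measured by Pearson's correlation over the 12 samples at 48 h after subtraction of group means, among 252 probes detected on every 48 h array. These samples share arrays and normalization, and the values are a description. miR-23b was most like miR-706 (0.93), miR-21 (0.87) and let-7b (0.85). miR-23a was most like let-7a (0.72), miR-126-5p (0.66) and miR-21 (0.66). The 3 samples that did not detect miR-23a enter all its correlations, with the other members too, at the background floor. miR-27a was most like miR-339-5p (0.86), miR-328 (0.80) and miR-199a-5p (0.75), and miR-27b most like miR-652 (0.91), miR-191 (0.86) and miR-222 (0.85). miR-24 was most like miR-18a* (0.73), miR-690 (0.70) and let-7g (0.68). Among the 5, miR-27a and miR-27b correlated at 0.70, miR-23a and miR-23b at 0.42, and miR-23b and miR-24 at -0.64.

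The other miRNAs described as raised by laminar flow were read from a list of 13, which holds miR-143, miR-145 and both miR-126 strands. It was drawn up from memory with earlier results of these data known, so its counts are a description. At 48 h, 11 of 12 tested had point estimates below 0 (median -0.53), and none passed the test. Over all 407 miRNAs, 204 lay below 0 (median 0.00). At 12 h, 9 of the 13 lay below 0 (median -0.08), and none passed the test. Over all 430 miRNAs, 239 lay below 0 (median -0.05).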

How the data were processed

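Signals were average intensity values per probe with a detection p-value, deposited by the authors without normalization; GenomeStudio 2010.2 is named in the submitters' processing notes. Columns carry no time, and each table was tied to its time through the authors' processed values (rank correlation at least 0.999976, other time at most 0.759). Signals were corrected and quantile-normalized within each time by neqc (limma 3.58.1, R 4.3.3; offset 16), and log2 values tested with lmFit and eBayes with trend. Only miRNAs detected (p under 0.05) on 3 or more arrays of a group entered the tests. Named miRNAs were the 5 members, minor strands on the array and the 3 most correlated probes per member, plus cell type markers; let-7e, miR-26a, miR-574-3p and miR-99b were named after their values were seen. Members and lists were chosen with earlier results of these data known.

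The fit was tested on simulated data. Without normalization, or with nothing changed, false calls were few. When other miRNAs were made to change strongly before quantile normalization, bright unchanged miRNAs were called as well, often including miR-23b, and the test's original requirement was not met. The size and number of the planted changes were not matched to these data, and the scatter was taken from signals already normalized. Whether the miR-23b call at 48 h arose in this way was not tested. The planned normalization was kept. Slide and scan were not examined. The number of arrays limits the precision. Same-numbered arteries correlated at 0.0245 to 0.0599 at 12 h, each above its best other-numbered match (at most 0.0109). At 48 h they correlated at most 0.0242, each below its best other-numbered match (up to 0.334). Numbers were not used as pairs in the fits reported, only in the setting named replicate block, which adds the sample number to the fit.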

Additional observations from a re-analysis of the deposited data

Results flagged for a closer look

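Of 24 groups of values at 48 h examined for a sample apart from the others, 10 held one; chance gives about 1 in 20. In right arteries the lowest miR-23a log2 signal was 5.78, the lowest miR-23b 14.43 and the lowest miR-27b 11.41. In left arteries the lowest miR-27b was 12.22. The right array with the lowest miR-23a did not detect it, so that signal and its gaps are set by the background floor. The other cases are gaps built from the same signals: miR-23b minus miR-23a reached 8.65 and miR-27a minus miR-23a 8.88 in right arteries. miR-27b minus miR-27a was lowest at -2.35 in left and -3.10 in right arteries, and miR-27b minus miR-23b at -2.24 and -3.25.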

How the results depend on the processing

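The number of arrays and the compressed bright end of the scale limit these results. The miR-23b change at 48 h became -0.38 with 75th percentile scaling, -0.076 with that percentile over probes detected on every array, -0.13 with cyclic loess, -0.24 without the 3 right arrays with fewest probes, and stayed -0.22 but past the threshold no longer with the replicate block (adjusted p = 0.159) or without trend. Under each of these 0 members were called. Without 1 sample it ran from -0.25 to -0.19, with 0 to 1 members called; the call held only without left 2, left 3 or right 4. The percentile over detected probes and the sets without 2 or 3 right arrays were chosen after seeing the data. All miRNAs called at 48 h, 12 in the fit reported, numbered 4 with 75th percentile scaling, 25 without a filter, 0 with the replicate block, 7 without trend, 21 with array weights and 6 without the 3 right arrays, and 0 to 15 without 1 sample. At 12 h they numbered 1 with no background correction, offset 50, no filter or the authors' processed values, 0 when detected on every array or with the replicate block, and 1 to 2 without 1 sample. With every 12 h array as a sample, 72 were called, 2 of them members (miR-23a and miR-27a). The difference between times gave 0 to 1 calls without 1 sample. Members called between times fell to 1 in left and 0 in right arteries under both percentile scalings.

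Signs turned as follows, and the cause was not tested. At 12 h, 75th percentile scaling gave miR-23b 0.0070 and miR-24 0.039; cyclic loess gave miR-23b 0.076, miR-27a 0.057 and miR-24 0.106; the percentile over detected probes gave 0.055, 0.034 and 0.087. At 48 h, 75th percentile scaling gave miR-24 -0.16 and miR-27b* -0.017; cyclic loess gave miR-27a 0.084; the percentile over detected probes gave miR-27a 0.13, miR-27b 0.075 and miR-27a* 0.26. Array weights gave miR-27b* -0.29. miR-27a* was 0.14 without 2 and 0.79 without 3 right arrays, where miR-27b* was -1.06. Between times, 75th percentile scaling gave miR-23b 0.14 and miR-27a* -0.54 in left and miR-27a 0.48 and miR-27a* -0.54 in right arteries, and the percentile over detected probes gave miR-27a* -0.81 and -1.02.

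Without 1 sample, changes ran from -0.92 to 0.19 for miR-24-2* at 12 h, from -0.55 to 0.79 for miR-27b* and from -0.54 to 0.024 for miR-27b at 48 h, and for the difference between times from -0.41 to 0.15 for miR-27b and from -0.057 to 0.55 for miR-27a*. Gaps at 12 h ran from -0.14 to 0.0010 for miR-27b minus miR-23b, from -0.030 to 0.052 for miR-23b minus miR-126-3p, from -0.00342 to 0.050 for miR-24 minus miR-126-3p and from -0.044 to 0.11 for miR-23a minus miR-145. At 48 h they ran from -0.0528 to 0.033 for miR-23b minus miR-145, from -0.48 to 0.061 for miR-27b minus miR-27a, from -0.33 to 0.27 for miR-27b minus miR-23b and from -0.33 to 0.23 for miR-27b minus miR-145.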
